A study of Mus musculus with 14 samples.

Results

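The genes examined here are 8 regulators of the stability of cytokine mRNAs, all of which are among the 53278 genes of the count and TPM tables of lung group 2 innate lymphoid cells (ILC2s). They were taken by name for their known roles, with earlier results of these data known: the Zfp36 family (Zfp36, Zfp36l1 and Zfp36l2), the endonucleases Zc3h12a and Zc3h12d, the Roquin pair (Rc3h1 and Rc3h2) and Elavl1. RNA-seq was performed on 14 libraries, each described as the sorted ILC2s of an individual female mouse, live, lineage-, CD90.2+ and CD3-. Legends elsewhere in the study speak of 2 animals pooled per sort, so that a library may hold more than 1 mouse. In the stimulation experiment, ILC2s of 8 separate B6 mice were either left unstimulated in complete RPMI (n = 4) or given IL-33 at 20 ng/mL for 24 h (n = 4). The design text gives both arms the same time in culture, whereas the sample labels state no time for the unstimulated cells, and another passage of the study describes them as ex vivo. If those cells were taken ex vivo, IL-33 and 24 h of culture cannot be told apart in any difference between these arms. In the Blimp-1 experiment, ILC2s of ControlIL7RaCre mice (n = 3) and of Blimp-1IL7RaCre mice (n = 3) spent 72 h in culture with IL-25 and IL-33 (20 ng/mL of either cytokine), to which the study's methods add IL-2. Blimp-1 is the transcriptional repressor encoded by Prdm1, and both genotypes carried the Cre. The study describes deletion by this Cre as reaching beyond ILC2s, to other ILCs and to T, B and NK lymphocytes. Loss of Blimp-1 in these animals was thus not confined to the cells that were sorted.

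Messenger RNAs of cytokines and chemokines are short-lived because proteins bind elements in their 3′ untranslated region (3′ UTR). Zfp36 (tristetraprolin) and its relatives Zfp36l1 and Zfp36l2 are zinc finger proteins that bind AU-rich elements and recruit the CCR4-NOT deadenylase, which shortens the poly(A) tail before the transcript is degraded. Zc3h12a (Regnase-1) and Zc3h12d (Regnase-4) belong to a family of endonucleases, and Regnase-1 cleaves stem-loops in mRNAs such as Il6. Rc3h1 (Roquin-1) and Rc3h2 (Roquin-2) bind stem-loops in transcripts such as Icos and Tnf and also recruit CCR4-NOT. Elavl1 (HuR) binds AU-rich and U-rich sequences and is best known for stabilizing them. ILC2s release large amounts of cytokine within hours of an alarmin signal. The action of these proteins on cytokine transcripts in ILC2s was not measured here.

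The preferred element of the Zfp36 family is the nonamer TTATTTATT (written as DNA), and several of the 8 genes carry it in their own 3′ UTR. The longest annotated 3′ UTR of each gene was searched on the mRNA strand alone, with overlapping matches counted separately. Zfp36, Zfp36l1, Zfp36l2, Rc3h1 and Rc3h2 held 1 nonamer each, Elavl1 held 8 overlapping or neighbouring ones, and Zc3h12a and Zc3h12d held 0. Among 20979 genes with an annotated 3′ UTR, 7.67% held at least 1. Since long UTRs hold more matches by length alone, the share was also taken over UTRs within 20% of each gene's length. It was 4.02% for Zfp36, 10.1% for Zfp36l1, 18.0% for Elavl1, 22.0% for Rc3h2 and 27.6% for Rc3h1. The sites are printed below with 10 bases on either side, the nonamer in capitals, to show the element in these regulators beside the same element in 4 target transcripts described further on, Tnf, Csf2, Cxcl2 and Lif. For genes with several matches the first is given. A match describes the sequence and does not show binding.
Zfp36: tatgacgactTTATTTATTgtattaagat
Zfp36l1: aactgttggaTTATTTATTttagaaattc
Zfp36l2: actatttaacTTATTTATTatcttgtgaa
Rc3h1: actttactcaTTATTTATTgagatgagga
Rc3h2: caaagacattTTATTTATTttactctgta
Elavl1: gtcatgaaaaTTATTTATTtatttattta
Tnf: tttgcacttaTTATTTATTatttatttat
Csf2: ttttaaatatTTATTTATTtatttattta
Cxcl2: gagagttcacTTATTTATTtatctatgta
Lif: aaaggggcctTTATTTATTatttaaaact

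In GRCm38 these stretches lie at chr7:28376951-28376979 (minus strand) for Zfp36, chr12:80108167-80108195 (minus) for Zfp36l1, chr17:84184914-84184942 (minus) for Zfp36l2, chr1:160970043-160970071 (plus) for Rc3h1, chr2:37373287-37373315 (minus) for Rc3h2 and chr8:4285788-4285816 (minus) for Elavl1. Those of the target transcripts lie at chr17:35199689-35199717 (minus) for Tnf, chr11:54247329-54247357 (minus) for Csf2, chr5:90905316-90905344 (plus) for Cxcl2 and chr11:4272039-4272067 (plus) for Lif. All are exonic, within the 3′ UTR.

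The genes themselves lie at chr7:28376784-28380253 (Zfp36), chr12:80107754-80113013 (Zfp36l1), chr17:84183931-84187947 (Zfp36l2), chr4:125118423-125127840 (Zc3h12a), chr10:7832470-7870396 (Zc3h12d), chr1:160906418-160974978 (Rc3h1), chr2:37370069-37422903 (Rc3h2) and chr8:4285382-4325413 (Elavl1). The strand used for counting is not given in the sources used here. Reads of antisense neighbours could thus be counted in part, and a gene's own reads over shared bases could be lost. This touches Zfp36l1 most, since 55.9% of its exonic bases overlap Gm26669 on the opposite strand, which had between 0 and 30 counts in any library. Overlap on the opposite strand was 3.6% or less for Zfp36, Zfp36l2 and Elavl1 and absent for the other genes. At most 1.19% of the 75-base stretches of any of the 8 genes occurred in another gene's transcripts.

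Libraries of the stimulation experiment held 10470125 to 32849428 counts, and those of the Blimp-1 experiment 13570188 to 76448945. In both experiments the shallowest library stood apart from its group. IL-33 replicate 3 had a median correlation of 0.820 with the other IL-33 libraries (log2 CPM), against 0.986 to 0.989 in the rest of that experiment. Control replicate 2 had 76.8% of its counts on 7 loci, among them the mitochondrial ribosomal RNA mt-Rnr2, which left 3150795 counts for all other genes, and its collagen transcripts stood out, with Col1a1 at 2171 CPM against 48.1 and 124 in the other Controls. Differences in the 8 genes are therefore given with and without these libraries. Prdm1 itself, targeted by the deletion, was at 75.2, 92.8 and 74.0 CPM in the Control libraries and at 14.6, 11.5 and 11.4 CPM in the Blimp-1-deficient libraries. All 12 ILC2 markers examined, Gata3 and Il1rl1 among them, exceeded 3 counts in every library. Their summed level was 9105 to 9986 CPM in unstimulated and 6450 to 8751 CPM in IL-33 libraries, and 6458 to 7996 CPM in Control and 5689 to 6065 CPM in Blimp-1-deficient ones. The part of this shift in the results for the 8 genes was not tested.

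In unstimulated ILC2s the 8 genes covered a wide range of transcript levels. On the TPM scale, which is per transcript length and allows genes to be compared, Zfp36l1 was highest at 193 ± 4.06 TPM (SD, n = 4) and Zfp36l2 second at 162 ± 22.0. These places correspond to percentiles of 93.9 and 92.4 among genes with a mean of at least 1 TPM. Elavl1 (48.0 ± 0.346), Rc3h1 (35.7 ± 2.61), Zfp36 (31.0 ± 1.45) and Zc3h12a (24.6 ± 2.104) formed the middle of the order. Rc3h2 followed at 11.8 ± 1.48 TPM and Zc3h12d at 2.75 ± 0.188 TPM, a percentile of 17.1. Zfp36, the founding member of its family, was thus the least abundant of the 3 paralogs in resting cells. With IL-33 the order changed at the top: Zc3h12a reached 108 ± 30.4 TPM (124 ± 4.64 without replicate 3), above Zfp36l1 at 68.7 ± 8.79 and Zfp36l2 at 67.7 ± 12.2.

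To compare ILC2s with and without IL-33, libraries were scaled by TMM and values are given as CPM, counts per 1000000. Of the 8 genes, Zc3h12a and Elavl1 rose and Zfp36l1 and Zfp36l2 fell after 24 h. All 8 passed the filter on low counts. These 2 higher and 2 lower calls stand beside 16.2% of all 15466 genes tested called higher and 16.1% called lower. Without IL-33 replicate 3 the calls were 2 higher and 5 lower, beside 27.5% and 29.7%, and Zfp36, Rc3h1 and Zc3h12d were the ones added. DESeq2 called 2 higher and 4 lower over all libraries (beside 11.7% and 11.3%) and 2 and 3 without replicate 3 (beside 16.4% and 15.4%).

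**Figure D1:**
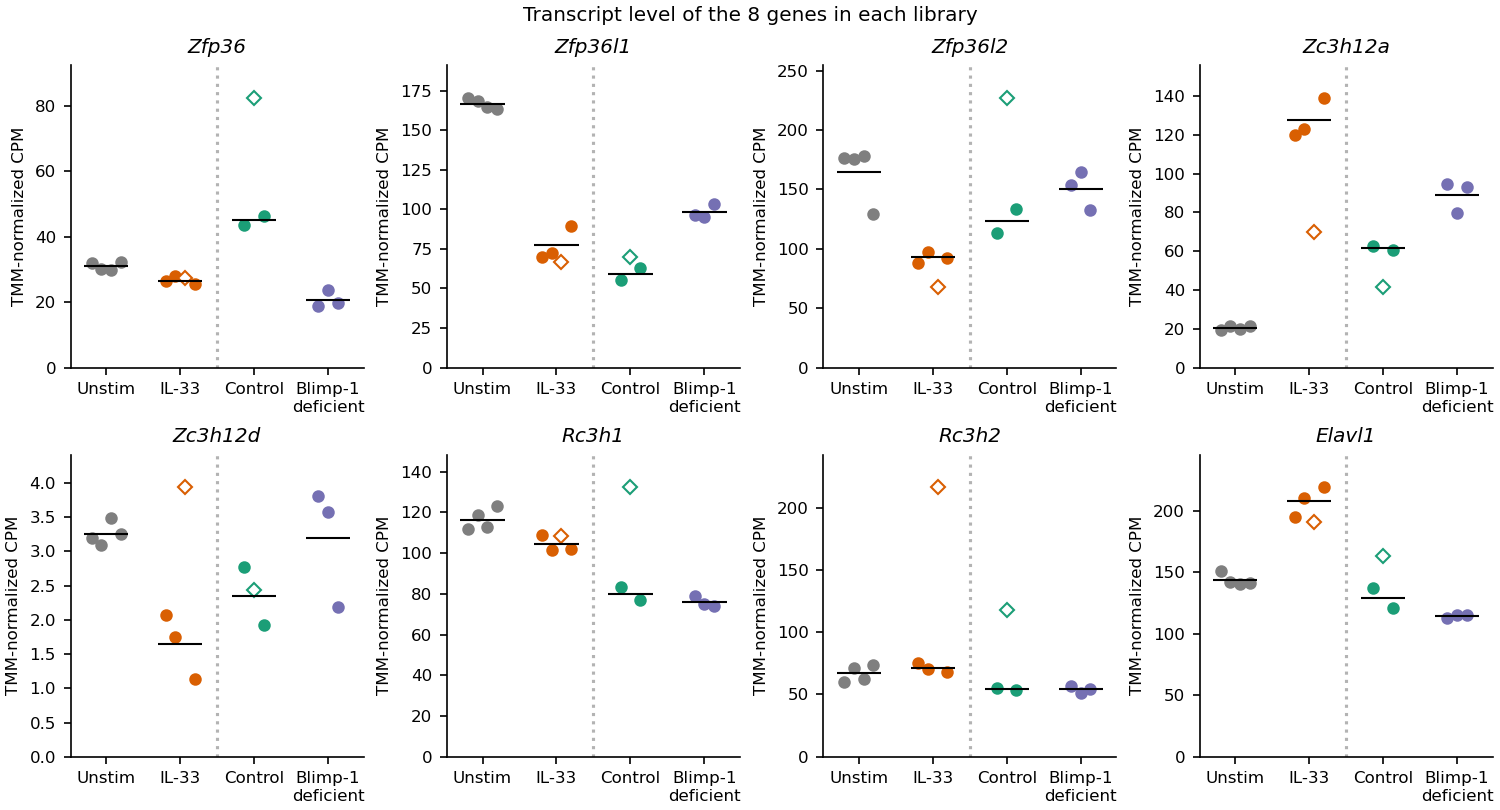
TMM-normalized CPM (vertical axes, linear, from 0) of each of the 8 genes in the unstimulated and IL-33 libraries and, right of the dotted line, the Control and Blimp-1-deficient libraries of the other experiment, which was normalized separately. Each symbol is 1 library, open diamonds are IL-33 replicate 3 and Control replicate 2, and the bar is the mean of the filled symbols. Zc3h12a is higher and Zfp36l1 lower in all 4 IL-33 libraries than in any unstimulated one, and Zfp36 is lower in all 3 Blimp-1-deficient libraries than in any Control library.

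Among the AU-rich element binding proteins, Zfp36l1 was at 171, 169, 165 and 163 CPM in the unstimulated libraries and at 70.1, 72.3, 66.6 and 89.4 CPM with IL-33. The groups were widely apart, and even the highest IL-33 library stood well below the lowest unstimulated one. Zfp36l1 was 2.23-fold lower with IL-33 (log2 fold change -1.16 ± 0.095 SE, adjusted p = 9.31e-05, edgeR), or 2.16-fold without replicate 3. Zfp36l2 was at 177, 176, 178 and 129 CPM without and at 88.0, 97.6, 67.8 and 92.4 CPM with IL-33. Here too the groups did not overlap, although unstimulated replicate 4 was lower than its 3 fellows. The fall was 1.91-fold (log2 -0.93 ± 0.15, adjusted p = 0.00197), or 1.78-fold without replicate 3. Zfp36, in contrast, moved little, from 31.9, 30.1, 29.8 and 32.4 CPM to 26.5, 27.9, 27.4 and 25.4 CPM. Its groups also did not overlap. With edgeR the log2 fold change of -0.21 (95% interval -0.39 to -0.03) did not pass the threshold over all libraries (adjusted p = 0.0720). It passed without IL-33 replicate 3 (-0.22, adjusted p = 0.0160). DESeq2 gave the reverse, passing over all libraries (adjusted p = 0.0121) and not without replicate 3 (adjusted p = 0.0589). Limma on log2(TPM + 1) gave -0.52 (adjusted p = 0.00183), on a scale where the median of all genes lay at -0.25.

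The endonuclease Zc3h12a showed the largest change of the 8 genes. It was at 19.2, 21.4, 19.8 and 21.5 CPM in unstimulated ILC2s and at 120.1, 123, 69.6 and 139 CPM with IL-33. Every IL-33 library was far above the unstimulated ones, and replicate 3 was the lowest of them. This gave a 5.53-fold rise (log2 2.47 ± 0.20, adjusted p = 9.38e-05), or 6.22-fold without replicate 3. Its relative Zc3h12d, a scarce transcript, was at 3.19, 3.09, 3.48 and 3.25 CPM without IL-33 and at 2.07, 1.75, 3.94 and 1.13 CPM with it. Only replicate 3 of the IL-33 libraries was within or above the unstimulated range, and with it the difference did not pass (log2 -0.56, adjusted p = 0.267). Without it Zc3h12d fell by 0.97 on the log2 scale (SE 0.22, adjusted p = 0.00387).

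The Roquin genes changed little. Rc3h1 was at 112, 119, 113 and 123 CPM in unstimulated ILC2s and at 109, 102, 109 and 102 CPM with IL-33, so that the ranges lay side by side without overlap. With edgeR the log2 fold change of -0.15 did not pass over all libraries (adjusted p = 0.0910) and did without replicate 3 (-0.16, 95% interval -0.28 to -0.04, adjusted p = 0.0282). With DESeq2 Rc3h1 passed over all libraries (adjusted p = 0.0309) and not without replicate 3 (adjusted p = 0.0846). Limma on log2(TPM + 1) gave -0.46 (adjusted p = 0.00408), where the median of all genes lay at -0.25. For Rc3h2 the values were 60.1, 71.6, 62.7 and 73.7 CPM without IL-33 and 75.6, 70.6, 217 and 67.9 CPM with it. Replicate 3 alone was high and the other 3 IL-33 libraries lay within or just above the unstimulated range. The fold change was 0.68 in log2 over all libraries (95% interval -0.20 to 1.56, adjusted p = 0.2004) and 0.09 without replicate 3 (-0.09 to 0.27, adjusted p = 0.352).

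Elavl1, the stabilizing member of the set, was at 151, 142, 141 and 141 CPM in unstimulated ILC2s and at 195, 210.03, 191 and 219 CPM with IL-33. All IL-33 libraries were higher, by 1.42-fold (log2 0.50 ± 0.064, adjusted p = 0.000701), or 1.45-fold without replicate 3. The size of this change depended on the scaling. On deposited TPM Elavl1 went from 48.0 ± 0.346 to 54.1 ± 4.16 TPM, and limma on log2(TPM + 1) gave 0.17 (adjusted p = 0.135) on a scale where the median of all genes lay at -0.25. Zc3h12a, Zfp36l1 and Zfp36l2 passed in the same direction under all 18 alternatives tried, including those on TPM.

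IL-33 replicate 3 differed in relatives of these genes as well. Elavl2, Elavl3 and Elavl4, the ELAV genes known from neurons, were between 0.263 and 2.25 CPM in the other 7 libraries and at 74.2, 64.4 and 81.9 CPM in replicate 3. Summed markers of other cell types were also set side by side between the groups, and not every list examined is printed here. Over 8 T cell markers the summed level was 167 to 187 CPM in unstimulated and 38.4 to 63.0 CPM in IL-33 libraries, with 8 and 6 of the 8 above 3 counts in every library and none at 0 throughout. Summed levels of 7 mast cell or basophil markers were 7.12 to 14.7 against 0.0324 to 0.985 CPM, with Ms4a2 at 0 in all 8 libraries. For 8 epithelial or stromal markers they were 390.03 to 593 against 231 to 428 CPM, and for 9 myeloid markers 84.0 to 191 against 39.6 to 122 CPM. For both of these lists the groups overlapped. The part of these markers in the results for the 8 genes was not tested. In bulk libraries, fewer cells of a type and less RNA per cell cannot be told apart.

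**Figure D2:**
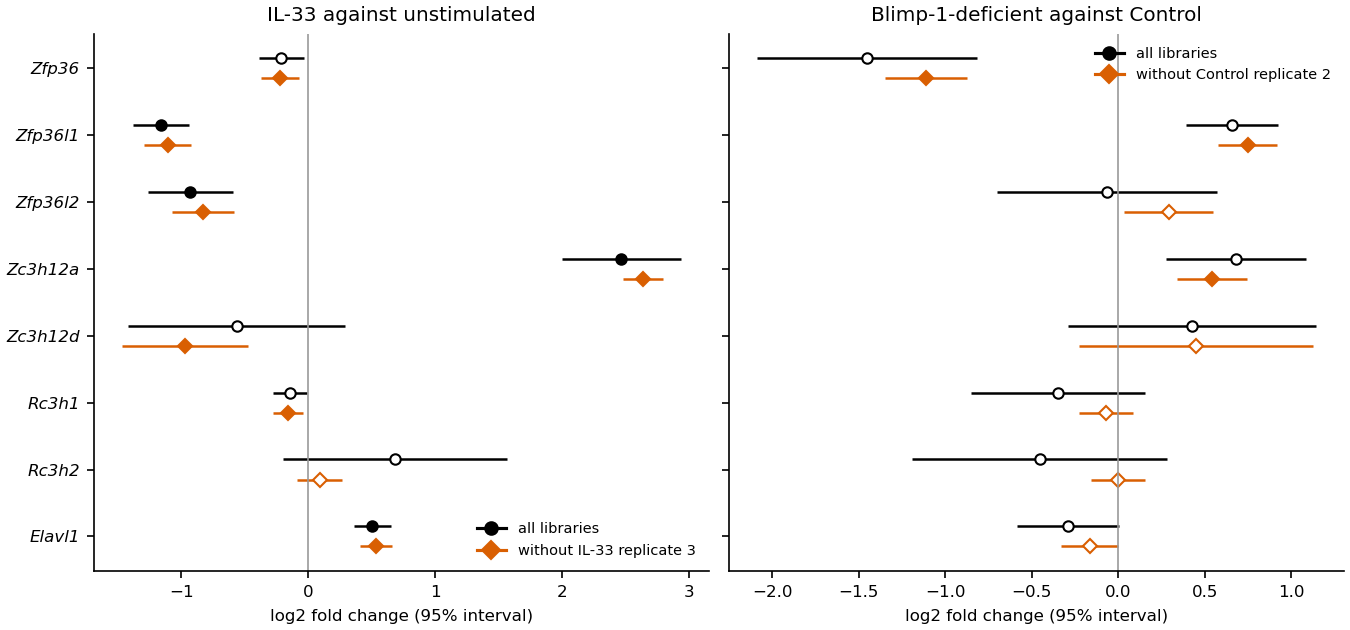
Log2 fold change of each gene (horizontal axis, edgeR) with its 95% interval for IL-33 against unstimulated ILC2s (left) and Blimp-1-deficient against Control ILC2s (right), over all libraries (black circles) and without the library that stood apart (orange diamonds). Filled symbols have an adjusted p below 0.05. Zc3h12a at 2.47 and Zfp36l1 at -1.16 lie farthest from 0 on the left, and on the right only Zfp36, Zfp36l1 and Zc3h12a are filled, and only without Control replicate 2.

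Because a ratio of genes within a library does not depend on how libraries are scaled, the make-up of each family was compared next, as shares of summed TPM. Zfp36 made up 7.91, 7.54, 7.53 and 9.29% of the Zfp36 family in unstimulated ILC2s and 13.6, 13.4, 16.0 and 11.6% with IL-33. Its share was thus higher in every IL-33 library, 13.6 ± 1.82% against 8.07 ± 0.836% (SD, n = 4 each, exact permutation p = 0.0286, the smallest that 4 against 4 allows, adjusted over 6 values p = 0.0343). Zfp36l1 went from 50.2 ± 2.83% to 43.6 ± 3.07%, again without overlap and with the same exact permutation p, while Zfp36l2 held 41.8 ± 3.65% and 42.7 ± 3.26% with overlapping libraries (exact permutation p = 0.686). Within the Regnase pair, Zc3h12a rose from 89.9 ± 0.828% to 98.4 ± 1.48% of the summed TPM (exact permutation p = 0.0286, adjusted 0.0343). Rc3h1 made up 75.1 ± 1.05% of the Roquin pair without and 65.4 ± 12.6% with IL-33, where replicate 3 was at 46.5% and the other 3 libraries were at 71.4, 71.5 and 72.3%. That difference of -9.73 percentage points was -3.43 without replicate 3. The summed Zfp36 family stood at a log2 ratio to Elavl1 of 2.99, 3.07, 3.07 and 2.88 in unstimulated libraries and of 1.58, 1.56, 1.42 and 1.58 with IL-33. The groups were far apart, with a difference of -1.47 log2 units (exact permutation p = 0.0286, adjusted 0.0343). With any 1 of the unstimulated libraries left out, these 5 differences kept their direction but had adjusted exact p of 0.0571 to 0.206.

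**Figure D3:**
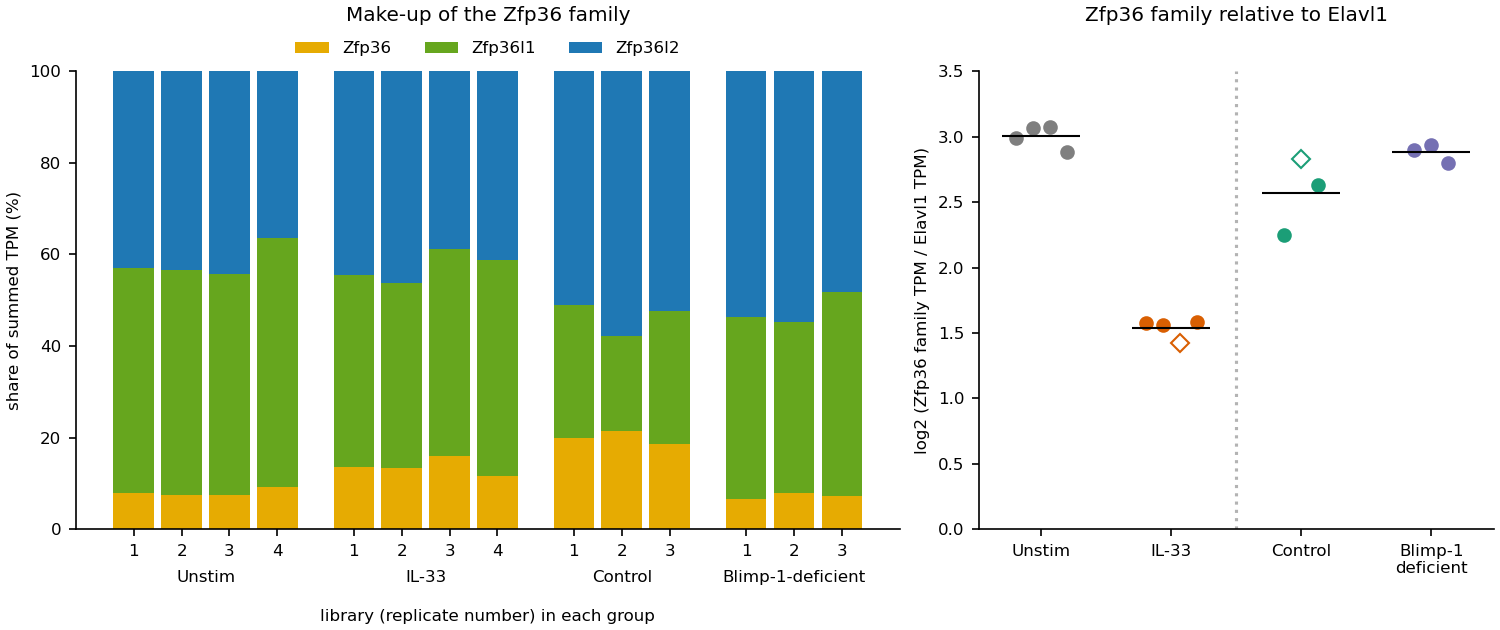
Left, share of Zfp36, Zfp36l1 and Zfp36l2 in their summed TPM (vertical axis, percent) in each of the 14 libraries. Right, log2 ratio of the summed family to Elavl1 TPM, with 1 symbol per library, open diamonds for IL-33 replicate 3 and Control replicate 2, and bars at the mean of all libraries of a group. The Zfp36 share is 18.5 to 21.3% in Control and 6.66 to 8.01% in Blimp-1-deficient libraries, and the ratio is lowest with IL-33, at 1.42 to 1.58.

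Next, Blimp-1-deficient and Control ILC2s were compared after 72 h with IL-33 and IL-25. Without Control replicate 2, Zfp36 was lower and Zfp36l1 and Zc3h12a were higher in Blimp-1-deficient cells. Over all 6 libraries none of the 8 genes passed with edgeR, with 0 higher and 0 lower beside 0.45% and 0.306% of 17335 genes, although 3 had an unadjusted p below 0.05 and DESeq2 called 2 higher and 1 lower (beside 1.84% and 1.82%). Without Control replicate 2 edgeR called the same numbers, 2 higher and 1 lower, beside 8.25% and 5.72% of 17968 genes, as did DESeq2 (6.46% and 5.45%). CPM values in this experiment were scaled over all 6 libraries.

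Zfp36 was at 43.5, 82.6 and 46.5 CPM in Control and at 18.8, 23.6 and 19.7 CPM in Blimp-1-deficient ILC2s. The Blimp-1-deficient libraries were close together and well below all Controls, of which replicate 2 was the highest in CPM. In TPM rescaled outside the 7 loci replicate 2 was the lowest Control, at 42.0 against 48.1 and 53.0. The Blimp-1-deficient libraries were at 22.8 to 27.5 on that scale. Without Control replicate 2 Zfp36 was 2.16-fold lower (log2 -1.11 ± 0.10, adjusted p = 0.00159), and over all 6 libraries the log2 fold change was -1.45 (95% interval -2.09 to -0.82, adjusted p = 0.0757). Over all 6 libraries it was -0.92 on rescaled TPM and -0.76 with scaling by library size alone, and neither passed. On deposited TPM of all 6 libraries the sign turned (0.25 in log2 with a pseudocount of 1), on a scale where the median of all genes was at 1.28.

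Zfp36l1 moved the other way, from 55.1, 69.9 and 62.8 CPM in Control to 96.7, 94.8 and 103 CPM in Blimp-1-deficient cells. The groups did not overlap with or without replicate 2. Zfp36l1 was 1.68-fold higher without it (log2 0.75 ± 0.072, adjusted p = 0.00197) and at 0.66 in log2 over all libraries (0.39 to 0.92, adjusted p = 0.0585). Zfp36l2 was at 114, 227 and 134 CPM in Control and at 154, 164 and 132 CPM in Blimp-1-deficient ILC2s. These groups overlapped on the CPM scale, and the sign of the fold change was not stable, at -0.07 in log2 over all libraries (adjusted p = 0.965) and at 0.29 without Control replicate 2 (95% interval 0.03 to 0.55, adjusted p = 0.120). In TPM rescaled outside the 7 loci the Controls were at 124, 114 and 150, with replicate 2 lowest, and Blimp-1-deficient libraries at 151 to 191.

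Zc3h12a was at 62.5, 41.6 and 60.8 CPM in Control and at 94.5, 79.5 and 92.9 CPM in Blimp-1-deficient libraries, again without overlap. It was 1.45-fold higher without Control replicate 2 (log2 0.54 ± 0.086, adjusted p = 0.00950), and over all libraries the value was 0.68 (0.28 to 1.08, adjusted p = 0.168). Zc3h12d, at 1.92 to 2.77 CPM in Control and 2.18 to 3.81 CPM in Blimp-1-deficient cells, overlapped between genotypes (log2 0.43 over all libraries, adjusted p = 0.654, and 0.45 without replicate 2, adjusted p = 0.329). The Roquin genes did not separate either: outside replicate 2, Rc3h1 was at 83.3 and 76.9 CPM in Control and at 79.0, 74.8 and 73.8 CPM in Blimp-1-deficient cells, and Rc3h2 at 55.4 and 53.9 against 56.9, 51.6 and 54.2 CPM. Control replicate 2 was high for both genes on the CPM scale, at 132 and 118 CPM. In TPM rescaled outside the 7 loci it was at 20.7 for Rc3h1, below the other Controls at 28.3 and 26.9. For Rc3h2 it was at 10.6 there, beside 10.8 and 10.9. Without this library the log2 fold changes were -0.07 (95% interval -0.22 to 0.09) for Rc3h1 and 0.00 (-0.16 to 0.15) for Rc3h2, and over all libraries -0.35 and -0.45 (adjusted p = 0.59995 and 0.646). Elavl1 was at 137, 163 and 121 CPM in Control and at 113, 115 and 116 CPM in Blimp-1-deficient libraries. On this scale it was lower in each but not past the threshold (log2 -0.17 without replicate 2, -0.33 to -0.00, adjusted p = 0.157, and -0.29 over all libraries, adjusted p = 0.430). In rescaled TPM Control replicate 2 was at 27.8 and the other Controls at 50.9 and 46.2. Blimp-1-deficient libraries were at 44.8 to 47.7 there, so the groups overlapped.

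Shares within the Zfp36 family did not depend on the scaling of Control replicate 2. Zfp36 made up 19.9, 21.3 and 18.5% of the family in Control and 6.66, 8.01 and 7.29% in Blimp-1-deficient ILC2s. All 3 Controls were far above the 3 Blimp-1-deficient libraries, replicate 2 included, a difference of -12.6 percentage points (exact permutation p = 0.1, the smallest that 3 against 3 allows, adjusted 0.3). Zfp36l1 made up 29.2, 21.0 and 29.0% against 39.7, 37.3 and 44.4%, also without overlap (exact permutation p = 0.1, adjusted 0.3). The share of Zfp36l2 overlapped, at 53.7 ± 3.54% and 52.2 ± 3.44% (SD, n = 3 each), as did that of Zc3h12a in the Regnase pair (96.9 ± 0.888% and 97.5 ± 0.758%) and of Rc3h1 in the Roquin pair (69.9 ± 3.29% and 70.8 ± 0.659%). The summed family stood at log2 ratios to Elavl1 of 2.25, 2.83 and 2.63 in Control and of 2.90, 2.94 and 2.80 in Blimp-1-deficient cells, which overlapped through Control replicate 2 (exact permutation p = 0.2). Without it the ranges were apart, with a difference of 0.439 log2 units (exact permutation p = 0.1, the smallest that 3 against 2 allows, adjusted 0.2).

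The summed level of the 8 epithelial or stromal markers, 180 and 253 CPM in Controls 1 and 3 and 2693 CPM in replicate 2, was 390.2 to 541 CPM in the Blimp-1-deficient libraries, with Scgb1a1 at 0 in every Control. T cell markers summed to 38.9 to 46.8 and 47.1 to 53.4 CPM, with none at 0 throughout. Their part in these results was not tested.

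Over all 4 groups, levels were set side by side in TPM rescaled outside the 7 loci, leaving out IL-33 replicate 3 and Control replicate 2. As the experiments were deposited and normalized in separate tables and differ in time and stimulus, these orders are descriptions. Zfp36 was highest in Control at 50.5 ± 3.44 (SD, n = 2), then unstimulated (31.4 ± 1.35), and lowest in Blimp-1-deficient and IL-33 cells (24.7 ± 2.50 and 21.7 ± 1.71), whose ranges overlapped. Zfp36l1 was highest in unstimulated cells at 196 ± 4.70, then Blimp-1-deficient at 136 ± 7.06, with Control (76.9 ± 8.71) and IL-33 (72.7 ± 6.79) overlapping at the bottom. For Zfp36l2 only the IL-33 group, at 74.1 ± 4.44, stood clear of its neighbour, Control at 137 ± 18.7. Zc3h12a was at 128 ± 16.0 in Blimp-1-deficient and 124 ± 4.84 in IL-33 cells, which overlapped, then 83.3 ± 0.114 in Control and 24.9 ± 2.14 in unstimulated cells. Zc3h12d was lowest with IL-33 at 1.15 ± 0.370 and between 2.23 and 3.24 on average elsewhere. Rc3h1 was highest unstimulated at 36.2 ± 2.60 and between 26.0 and 27.8 on average in the activated groups, which overlapped. Rc3h2, from 10.3 to 12.01 on average, overlapped between all neighbours, and Elavl1 stood clear only in the IL-33 group, at 56.5 ± 1.62 against 48.7 ± 0.361 in the next.

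Several of the proteins recruit shared decay machinery. Lists of decay genes, relatives, other RNA binders, regulators and known targets, 7 in all, were each described by counts and a median log2 fold change. With IL-33 these counts stand beside 16.2% of all genes called higher and 16.1% called lower, and beside 27.5% and 29.7% without replicate 3. Of 17 deadenylation genes, 2 rose and 1 fell with IL-33 (5 and 1 without replicate 3). Their difference from the shares of all genes was not tested. Cnot6l, which encodes a catalytic deadenylase subunit of CCR4-NOT, fell from 607 ± 18.1 to 242 ± 15.8 CPM (log2 -1.32, adjusted p = 1.26e-05). Cnot7, another catalytic subunit, rose from 67.9 ± 2.77 to 99.9 ± 5.48 CPM (0.56, adjusted p = 0.000411), and Cnot2, a scaffold subunit, rose by 0.33 in log2. Among 17 genes of decapping and 5′-to-3′ decay, Dcp1a rose (0.39) and its paralog Dcp1b fell (-0.58), as did Lsm2 (-0.35), and without replicate 3 the list had 3 higher and 3 lower. These counts too were not tested against the shares of all genes. Of 16 tested genes of the exosome and its Ski cofactors, which degrade RNA from the 3′ end, 6 rose and 0 fell, and without replicate 3 the count was 12 and 0, with a list median of 0.39 beside -0.05 for all genes. Both counts of higher genes were above the shares of all genes, 16.2% and 27.5%, a difference that was not tested. The largest rises were of Hbs1l (0.63) and Dis3 (0.54), the latter a catalytic subunit.

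Of the relatives of the 8 genes, Zc3h12c (Regnase-3) rose from 19.8 ± 1.23 to 54.8 ± 7.65 CPM (log2 1.47, adjusted p = 7.46e-05) and 0 of the 5 tested fell. Without replicate 3, 1 of the 5 fell, Elavl3 (-1.32, adjusted p = 0.0316). Other RNA-binding proteins were called in both directions, 5 higher and 3 lower of 22 (7 and 6 without replicate 3), near the shares of all genes. Arid5a, which protects stem-loop transcripts such as Il6 from Regnase-1, fell from 90.6, 96.0, 105 and 92.1 CPM to 33.4, 32.8, 23.3 and 32.5 CPM (log2 -1.65, adjusted p = 6.29e-05). The groups were far apart, and the direction was opposite to that of Zc3h12a. Ybx3, a cold-shock domain protein, rose by 1.41 and Cpeb4, which binds cytoplasmic polyadenylation elements, by 1.16 (0.67 without replicate 3), while Hnrnpd (AUF1), another AU-rich element binder, fell by 0.34. Among 20 kinases, 14-3-3 proteins and other regulators of the 8 proteins, 5 rose and 3 fell (7 and 7 without replicate 3), also not far from the shares of all genes. Mapkapk2, the kinase that phosphorylates Zfp36, rose (0.61, adjusted p = 0.0133), whereas Mapk14 and Mapk11, which encode the p38 kinases upstream of it, fell (-0.71 and -0.91), and the 14-3-3 gene Ywhag rose (0.79).

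In Blimp-1-deficient ILC2s 0 of 96 tested genes of these 6 lists passed over all libraries with edgeR (beside 0.45% of all genes higher and 0.306% lower), where 1 higher and 6 lower had an unadjusted p below 0.05, and DESeq2 called 1 higher and 3 lower (beside 1.84% and 1.82%). Without Control replicate 2 the edgeR counts were 1 higher and 6 lower, where 8.25% of all genes were called higher and 5.72% lower. The difference between these lists and all genes was not tested. Cnot6l was lower, at 303, 332 and 277 CPM in Control and 166, 191 and 192 CPM in Blimp-1-deficient cells, without overlap (log2 -0.66, adjusted p = 0.00427). So were Tob1 (-0.34), an adaptor that joins target mRNAs to the deadenylase, Lsm1 (-0.54) and Lsm7 (-0.45) of the Lsm ring that promotes decapping, the 14-3-3 gene Ywhaz (-0.38) and Mapk14 (-0.28). Over all libraries these stood at -0.73 for Cnot6l, -0.47 for Tob1, -0.48 for Lsm1, -0.19 for Lsm7 (adjusted p = 0.883), -0.39 for Ywhaz and -0.14 for Mapk14 (adjusted p = 0.801). Arid5a was higher, at 33.7, 39.2 and 42.7 CPM against 73.6, 64.9 and 52.7 CPM (0.75, adjusted p = 0.0228). Zc3h12a was higher as well in the fit without Control replicate 2, at 0.54 in log2.

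Finally, 28 transcripts known as targets of 1 or more of the 8 proteins in other cells were counted. With IL-33, 20 rose and 2 fell of 25 tested, beside 16.2% and 16.1% of all genes, with a median of 2.62 beside 0.06 for all genes. Cxcl2 was at 1.77 to 3.97 CPM in unstimulated and 245 to 375 CPM in IL-33 libraries (log2 6.65, adjusted p = 8.86e-06), and Csf2, which encodes GM-CSF, at 32.4 to 37.4 and 1582 to 2575 CPM (5.88, adjusted p = 1.97e-06). The 2 that fell were Icos, a Roquin target, by 0.36 in log2, and Il2 (adjusted p = 0.000106). Il2 was scarce, with 31, 60, 40 and 39 counts in the unstimulated libraries and 3, 2, 1 and 2 counts with IL-33. Its fitted log2 value of -4.07 thus rests on few counts. Without replicate 3 the list had 21 higher and 3 lower, beside 27.5% and 29.7% of all genes. The added lower call was Fos, an immediate early gene, at -1.44 (adjusted p = 5.59e-06) and at -0.93 over all libraries (adjusted p = 0.0868). The added higher call was Il1b, at 2.23 (SE 0.849, adjusted p = 0.0460) and at 2.75 over all libraries (SE 1.03, adjusted p = 0.0762). In Blimp-1-deficient cells 2 of 25 rose over all libraries with edgeR (beside 0.45% of all genes), DESeq2 called 13 higher and 1 lower of 28 (beside 1.84% and 1.82%), and with edgeR 14 rose and 1 fell without Control replicate 2 (beside 8.25% and 5.72% of all genes), with a median of 0.79 beside 0.01 for all genes. Lif was at 164, 129 and 120 CPM in Control and at 1165, 1208 and 1371 CPM in Blimp-1-deficient cells (log2 3.14 without replicate 2, adjusted p = 0.000241), and Tnf at 19.2, 15.1 and 19.6 against 82.1, 84.3 and 80.6 CPM (2.09, adjusted p = 2.79e-05). Tnf, Lif, Ifng and Csf2 are among the genes that the study itself singled out in these libraries, so the count is not independent evidence of a direction.

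Of the 28 targets, 11 held the nonamer shown above, with 5 matches in Tnf, 4 each in Csf2 and Cxcl2 and 2 in Lif. With IL-33, 8 of the 10 tested targets with a nonamer rose and 1 fell, and of the 15 without it 12 rose and 1 fell, with medians of 2.76 and 2.42. Of all genes, 16.2% rose and 16.1% fell. Without IL-33 replicate 3 the counts were 8 higher and 2 lower with it and 13 and 1 without it, beside 27.5% and 29.7% of all genes. In Blimp-1-deficient cells over all libraries, 2 of 10 with it and 0 of 15 without it rose (beside 0.45% of all genes), with medians of 1.34 and 0.56. In that fit 0 fell in either set, beside 0.306% of all genes. Without Control replicate 2, where 8.25% of all genes rose and 5.72% fell, 8 of 10 with it rose and 0 fell, and 6 of 15 without it rose and 1 fell. The median log2 fold changes there were 1.31 and 0.45. The difference between the 2 sets of targets was not tested. Tnf and Lif were the 2 that rose over all libraries. Both, and Csf2, hold the nonamer and are among the genes that the study singled out in these libraries. Ifng, also singled out, lacks the nonamer. The split is therefore not independent evidence of a direction either.

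**Figure D4:**
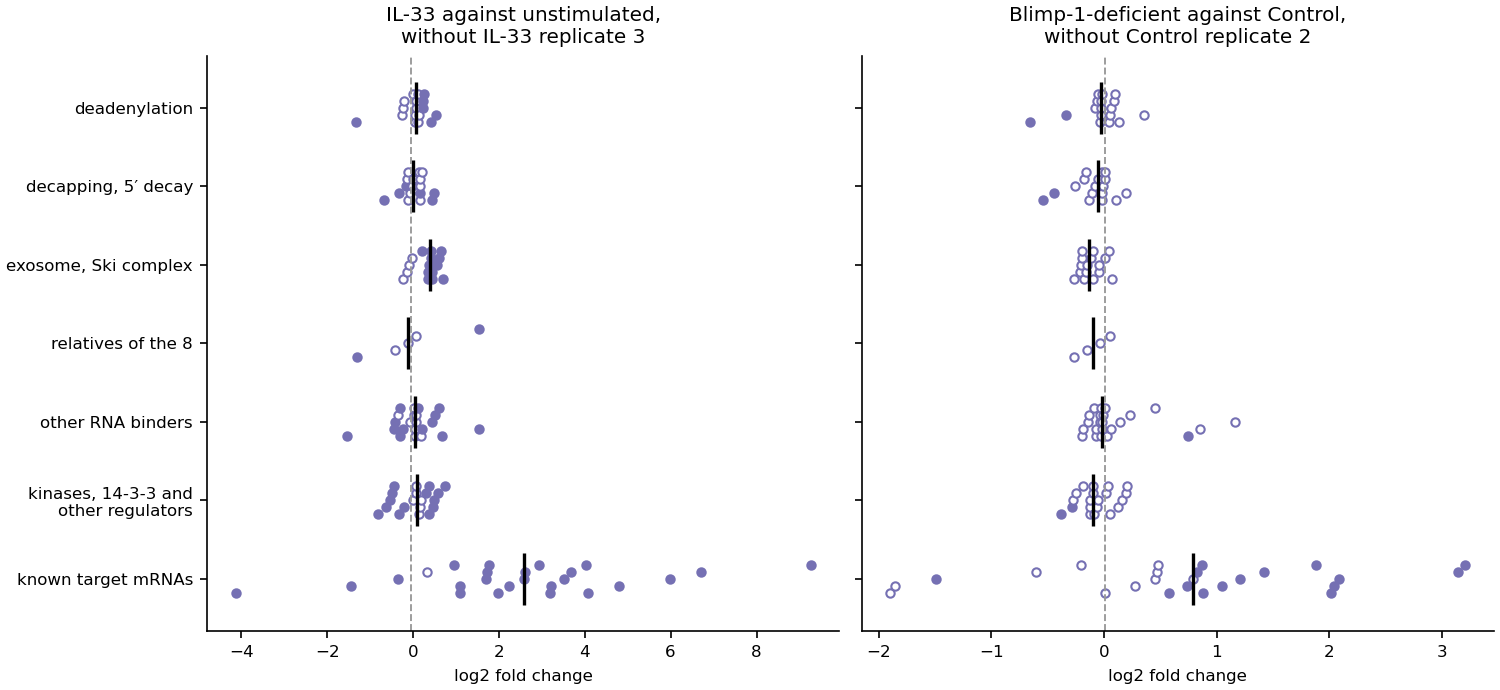
Log2 fold change (horizontal axis) of each tested gene of the 7 lists, for IL-33 against unstimulated ILC2s without IL-33 replicate 3 (left) and Blimp-1-deficient against Control ILC2s without Control replicate 2 (right). Each circle is 1 gene, filled where the adjusted p is below 0.05, the short bar is the list's median and the dashed line the median of all genes. Known targets have medians of 2.59 on the left and 0.79 on the right, and 12 of 16 exosome and Ski genes are filled on the left.

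Genes with the most similar pattern to each regulator were taken from 10810 genes by Pearson's r of log2 CPM over the 8 libraries of the stimulation experiment. Since these fall into 2 groups, and share the library that stood apart, the values are descriptions. Zc3h12a was most like Xpot (r = 0.999), Myo1e and Ibtk, and Elavl1 was most like Mrpl17 (0.999), Btf3 and Glrx3. Zfp36l1 was nearest to Tmem64 (0.997), Shroom4 and Plxdc2, Zfp36l2 to Pgap3 (0.994), B4galt1 and Ptpa, and Zfp36 to Gimap7 (0.980), Kbtbd2 and Cyp4v3. Rc3h1 was nearest to Kdm1b (0.994), Phtf1 and Phf1. Rc3h2, whose pattern was set by replicate 3, was nearest to Hivep2 (0.997), Nnat and Pcnx. Zc3h12d was below the minimum of 5 CPM and was not included.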

How the data were processed

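RNA-seq libraries of sorted mouse lung ILC2s (SMART-seq v4, Nextera XT, 75-base paired ends) were analysed from the tables the authors deposited for each experiment. Following the study's methods, reads were trimmed with cutadapt, aligned to GRCm38 with HISAT2 and counted with Subread, whereas the submitters' processing notes name Bowtie2, Subread, DESeq2 and mm10. The authors deposited raw counts per gene, whole numbers without normalization, and TPM, normalized by gene length and library total. No column of library values was left out, and the 2 experiments were fitted separately.

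Counts were tested with edgeR 4.0.16 in R 4.3.3 (TMM, filterByExpr, quasi-likelihood, group only, two-sided). Adjustment was by Benjamini-Hochberg over all genes tested, and the threshold was an adjusted p of 0.05. CPM are TMM-normalized counts per 1000000. Shares used deposited TPM and two-sided exact permutation tests over libraries (SciPy 1.17.1), adjusted over 6 values. The design text gives each library its own mouse, and where animals were pooled the tests measure the spread between pools. Intervals are 95%, and total counts of 10470125 to 76448945 per library set the counting precision. Alternatives were DESeq2 1.42.0, limma 3.58.1 on log2(TPM + 1) and log2(TPM + 0.1), voom with sample weights, other scalings and filters, a replicate block and leaving out each library. Scripts were tested on simulated data. Gene positions and 3′ UTRs came from GENCODE M21 (GRCm38), with the longest 3′ UTR of each protein-coding gene. Figures were drawn with matplotlib 3.10.9.

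The genes, lists and rules were chosen with earlier results of these data known. All 8 genes are named. From each list, up to 2 genes in each direction are named, those called with the greatest fold change and averaging 5 CPM or more (Blimp-1: without Control replicate 2), and for each of the 8 genes the 3 most correlated genes. Elavl2, Elavl3, Elavl4, Il2, Fos, Il1b, Col1a1 and Gm26669 were added after their values were seen. DESeq2 without each library that stood apart was added after the data were seen. No protein sequences were used here.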

Additional observations from a re-analysis of the deposited data

Results flagged for a closer look

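Single libraries far from the other 3 of their group were looked for with Dixon's test in 28 groups of 4 libraries, of which chance flags about 1 in 20, and 7 stood out. In unstimulated replicate 4, Zfp36l2 was at 129 CPM where the other 3 were at 176 to 178, and accordingly Zfp36l1 made up 54.4% and Zfp36l2 36.3% of the Zfp36 family in that library. In unstimulated replicate 1, Elavl1 was at 151 CPM, above 141 to 142 in the rest. The other 3 were in IL-33 replicate 3: Rc3h2 at 217 CPM against 67.9 to 75.6, Rc3h1 at 46.5% of the Roquin pair against 71.4 to 72.3%, and the log2 ratio of the Zfp36 family to Elavl1 at 1.42 against 1.56 to 1.58. Groups of 3 libraries were not examined in this way.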

How the results depend on the processing

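With IL-33, 4 of the 8 genes were called lower under DESeq2, library size alone and both limma fits on TPM, and 5 with voom sample weights or without IL-33 replicate 3. Over all genes the lower calls were 3201 of 28268 (DESeq2), 3691 of 15466 (library size), 4655 and 4546 of 15171 (TPM + 1 and TPM + 0.1), 4877 of 15466 (voom) and 4666 of 15733 (without replicate 3), against 2484 of 15466 with edgeR and TMM. Both limma fits called 1 higher, as Elavl1 was lost. In Blimp-1-deficient cells 2 were called higher and 1 lower under DESeq2, voom weights, edgeR without Control replicate 2 and DESeq2 without it. Log2 fold changes of the 8 genes turned sign in the Blimp-1 comparison only. For library size alone, TPM + 1, TPM + 0.1 and rescaled TPM, where the median of all genes lay at 0.45, 1.28, 1.69 and 0.42, the log2 fold changes were 0.27, 1.29, 1.47 and 0.18 for Elavl1, 0.31, 1.203, 1.43 and 0.14 for Rc3h1, 0.31, 0.99, 1.34 and 0.079 for Rc3h2, and 0.64, 1.71, 1.76 and 0.45 for Zfp36l2. Zfp36 was at 0.25 and 0.35 on TPM, at -0.76 with library size alone and at -0.92 on rescaled TPM, against -1.45 with TMM. Zfp36l1 kept its sign, at 1.196, 2.28, 2.42 and 1.11 in the same order, against 0.66 with TMM. Zc3h12a kept its sign too, at 1.16 on rescaled TPM and at most 2.47 over all alternatives, against 0.68 with TMM. Zfp36l2 was also at 0.20 with voom weights, 0.28 with DESeq2 without Control replicate 2, 0.29 with edgeR without it and 0.02 without Blimp-1-deficient replicate 3. The cause was not tested beyond these values.

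Leaving out 1 library at a time, the IL-33 differences ranged from 4.80 to 6.28 points for the Zfp36 share, -7.72 to -5.14 for Zfp36l1, -0.849 to 2.23 for Zfp36l2, 8.09 to 9.18 for Zc3h12a, -12.0156 to -3.43 for Rc3h1 and -1.51 to -1.43 for the log2 ratio. Zfp36l2 was also at -0.197 without IL-33 replicate 2. In the Blimp-1 comparison the range was -2.87 to 0.501 for the Zfp36l2 share (0.462 without Blimp-1-deficient replicate 3), -0.922 to 2.16 for the Rc3h1 share, and -0.24 to 0.29 for the log2 fold change of Zfp36l2.

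The design text divides 8 mice between the IL-33 arms. Same-numbered libraries had r of -0.145, 0.217, 0.282 and 0.177 there and of -0.133, -0.134 and 0.122 in the Blimp-1 comparison, so not every pair deviated together and the numbers were not taken to pair the samples. With a replicate block the gene counts stayed at 2 higher and 2 lower with IL-33 and 0 and 0 in the Blimp-1 comparison, while calls over all genes went to 1802 and 1898 and to 0 and 0. The share differences keep their values under the block (5.58, -6.54, 8.45, -9.73 and -1.47), and the adjusted exact p of 0.15 says nothing of stability, since 4 blocks allow no exact p under 0.05. Depth limits Control replicate 2 most, where 3 counts are 0.731 CPM.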
